A study of Mus musculus with 27 samples.

Results

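Stretches of DNA that were nearly unmethylated in the hepatocytes of most mouse strains and heavily methylated in a few of them are described here. The autosomes were divided into tiles of 1 kb, and a tile was kept when at least 3 of its positions were listed in all 27 samples. A tile was chosen when the mean methylation was under 15% in at least 5 of 9 strains and at 50% or more in at least 1 strain, a strain mean being taken over the tile's positions and the strain's 3 samples. A short stretch of chromosome 17 was left out by the rule. Of 94682 tiles, 171 were chosen, or 0.181%. They are called the strain-gained tiles below. A strain at 50% or more is called a gaining strain of its tile and a strain under 15% an unmethylated one. These words compare strains with the majority and say nothing of which state came first. The strain means chose the tiles, so the levels below are a description of them and no test of the strain differences on the tiles themselves is used.

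The study related genetic differences between strains to epigenetic marks and gene expression in hepatocytes, the main cells of the liver; only its DNA methylation is analysed here. Libraries came from livers of female mice aged 12 weeks, 3 samples for each inbred strain, and neither a treatment nor a control strain is labelled. The wild-derived strains were WSB/EiJ, PWK/PhJ and CAST/EiJ, and the laboratory strains were NZO/HlLtJ, NOD/ShiLtJ, DBA/2J, C57BL/6J, A/J and 129S1/SvImJ. Reduced representation bisulfite sequencing (RRBS) reads cytosines near CCGG, the site of the enzyme MspI. The labels number the samples as biological replicates. The p-values weigh differences between strain means against the spread between samples of a strain. The cell type is the labels' own and cannot be checked with marker genes in methylation data. Each file listed 2904787 to 3156965 positions with a percent methylation but no read count, so the depth is unknown and no counting interval can be given.

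In mammals a methyl group is carried mostly by the cytosine of CpG dinucleotides, and both strands of a CpG are usually methylated alike. Most CpGs of the genome are methylated, whereas CpG islands, the CpG-rich stretches found at many gene starts, are usually free of it in all tissues. Methylation of a gene start usually accompanies a silent gene, but expression was not analysed here.

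The tiles covered parts of 27 promoter windows of the RefSeq table, each running from 250 bases before to 50 after a transcription start, and 13 of these windows held at least 3 positions read in all samples. Another 13 held none, so a tile that holds a start was not always read at the start. The windows of 4 genes in such tiles and of Sfrp2, whose start lies in the tile next to one, are shown because the results at named genes turn on them. They are given 5′ to 3′ on the gene's strand in GRCm38.p6, and capitals mark each CpG with a position listed in all 27 samples.

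Gal, chr19:3414495-3414794, minus strand: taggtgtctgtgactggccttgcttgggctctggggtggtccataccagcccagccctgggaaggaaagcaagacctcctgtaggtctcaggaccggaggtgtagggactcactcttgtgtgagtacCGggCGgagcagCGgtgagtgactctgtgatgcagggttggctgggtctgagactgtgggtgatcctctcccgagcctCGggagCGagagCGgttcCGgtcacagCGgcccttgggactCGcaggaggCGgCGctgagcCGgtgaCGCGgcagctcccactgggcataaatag
Gm8773, chr5:5573754-5574053, plus strand: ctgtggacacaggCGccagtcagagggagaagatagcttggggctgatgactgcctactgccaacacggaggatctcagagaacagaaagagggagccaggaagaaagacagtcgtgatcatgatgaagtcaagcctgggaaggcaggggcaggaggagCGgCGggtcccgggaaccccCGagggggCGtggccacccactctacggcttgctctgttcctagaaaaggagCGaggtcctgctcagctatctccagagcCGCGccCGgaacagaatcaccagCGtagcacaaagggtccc
Akr1b8, chr6:34353896-34354195, plus strand: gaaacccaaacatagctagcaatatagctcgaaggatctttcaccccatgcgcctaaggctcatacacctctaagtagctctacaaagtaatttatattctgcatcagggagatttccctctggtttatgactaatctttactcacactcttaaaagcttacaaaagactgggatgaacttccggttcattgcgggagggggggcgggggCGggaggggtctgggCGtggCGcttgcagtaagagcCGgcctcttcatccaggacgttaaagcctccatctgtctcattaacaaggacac
Isoc2b, chr7:4866130-4866429, minus strand: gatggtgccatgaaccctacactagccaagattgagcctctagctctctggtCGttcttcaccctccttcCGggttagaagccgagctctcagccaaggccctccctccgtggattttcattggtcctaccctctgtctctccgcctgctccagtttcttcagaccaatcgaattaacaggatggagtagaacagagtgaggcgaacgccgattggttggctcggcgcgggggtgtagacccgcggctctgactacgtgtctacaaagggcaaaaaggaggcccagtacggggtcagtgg
Sfrp2, chr3:83766071-83766370, plus strand: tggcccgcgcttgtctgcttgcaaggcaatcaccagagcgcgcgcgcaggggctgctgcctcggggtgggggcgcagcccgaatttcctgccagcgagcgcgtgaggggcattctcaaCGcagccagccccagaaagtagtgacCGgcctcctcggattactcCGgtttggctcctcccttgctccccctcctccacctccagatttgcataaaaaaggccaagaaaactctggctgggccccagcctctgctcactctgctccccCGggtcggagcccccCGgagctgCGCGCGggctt

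The Gal window holds 16 CpGs, of which 14 were read, and the Gm8773 window 14, of which 10 were read. Fewer were read at Akr1b8 (4 of 10), Isoc2b (2 of 16) and Sfrp2 (8 of 22). The median window of the table holds 7 CpGs, so all 5 are CpG-rich by that measure. CCGG occurs 4 times in the Gal window and 4 times in that of Sfrp2, and 53.5% of all 31396 autosomal windows of the table hold it. GGGCGG, searched on both strands, occurs once in the Gal window and 2 times in that of Akr1b8, against 36.0% of all windows that hold it.

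Most of the tiles were gained in CAST/EiJ or PWK/PhJ. PWK/PhJ was at 50% or more in 84 tiles and CAST/EiJ in 75, and at least 1 of them was in 134 of 171. The other strains gained far fewer: WSB/EiJ 15, A/J 14, NOD/ShiLtJ 14, 129S1/SvImJ 12, NZO/HlLtJ 8, C57BL/6J 7 and DBA/2J 6. Together these made 235 gains, a gain being 1 strain at 50% or more in 1 tile, and 67.7% of them were in CAST/EiJ or PWK/PhJ. By the rule at most 4 strains can gain a tile, so a high level shared by more strains is never counted. How often each strain stands apart over all tiles is not set beside these counts. A single strain stood at 50% or more in 118 tiles (69.0%), 2 strains did in 43, 3 in 9 and 4 in 1. PWK/PhJ alone accounted for 53 tiles, CAST/EiJ alone for 44 and both together, with no other strain, for 23. WSB/EiJ stood alone in 6 tiles, A/J in 5, 129S1/SvImJ, C57BL/6J and NOD/ShiLtJ in 3 each and NZO/HlLtJ in 1. DBA/2J was never the only gaining strain, and in 4 of its 6 tiles the partner was 129S1/SvImJ. Those 4 tiles were adjacent pairs on chromosomes 1 and 9, so they do not stand for 4 separate places. Adjacent tiles are counted singly in all of these counts.

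**Figure D1:**
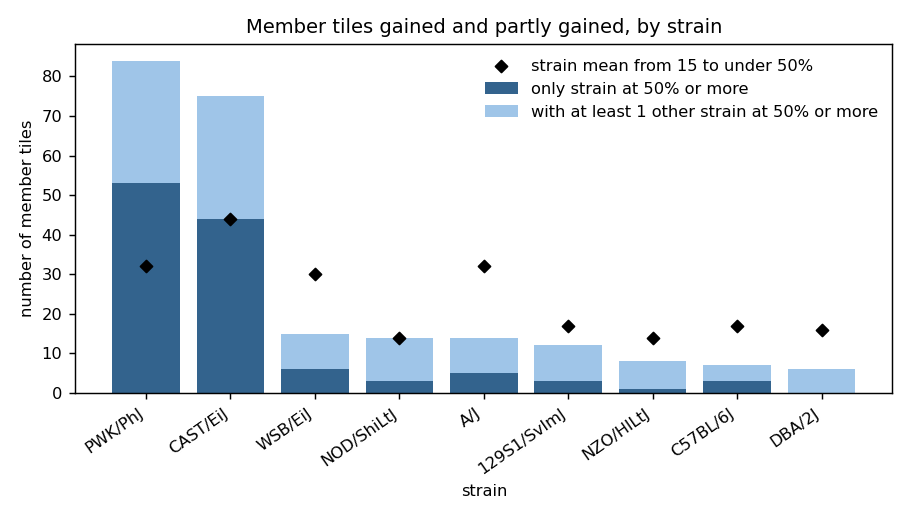
Number of tiles (vertical axis) in which each strain (horizontal axis) had a mean of 50% or more, dark where it was the only such strain and light where at least 1 other strain shared it; diamonds count tiles in which the strain lay from 15 to under 50%. PWK/PhJ with 84 tiles and CAST/EiJ with 75 stand above the others, which have 6 to 15.

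The levels of CAST/EiJ and PWK/PhJ were partly shared. Of the 75 tiles gained in CAST/EiJ, PWK/PhJ was also at 50% or more in 25, between 15 and 50% in 23 and under 15% in 27. Of the 84 gained in PWK/PhJ, CAST/EiJ lay between 15 and 50% in 34 and under 15% in 25. So in each of these strains' gained tiles the other was often intermediate. Both strains also led the mirror class, the 169 tiles over 85% in at least 5 strains and at 50% or less in at least 1: CAST/EiJ was low in 76 of them and PWK/PhJ in 64.

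**Figure D2:**
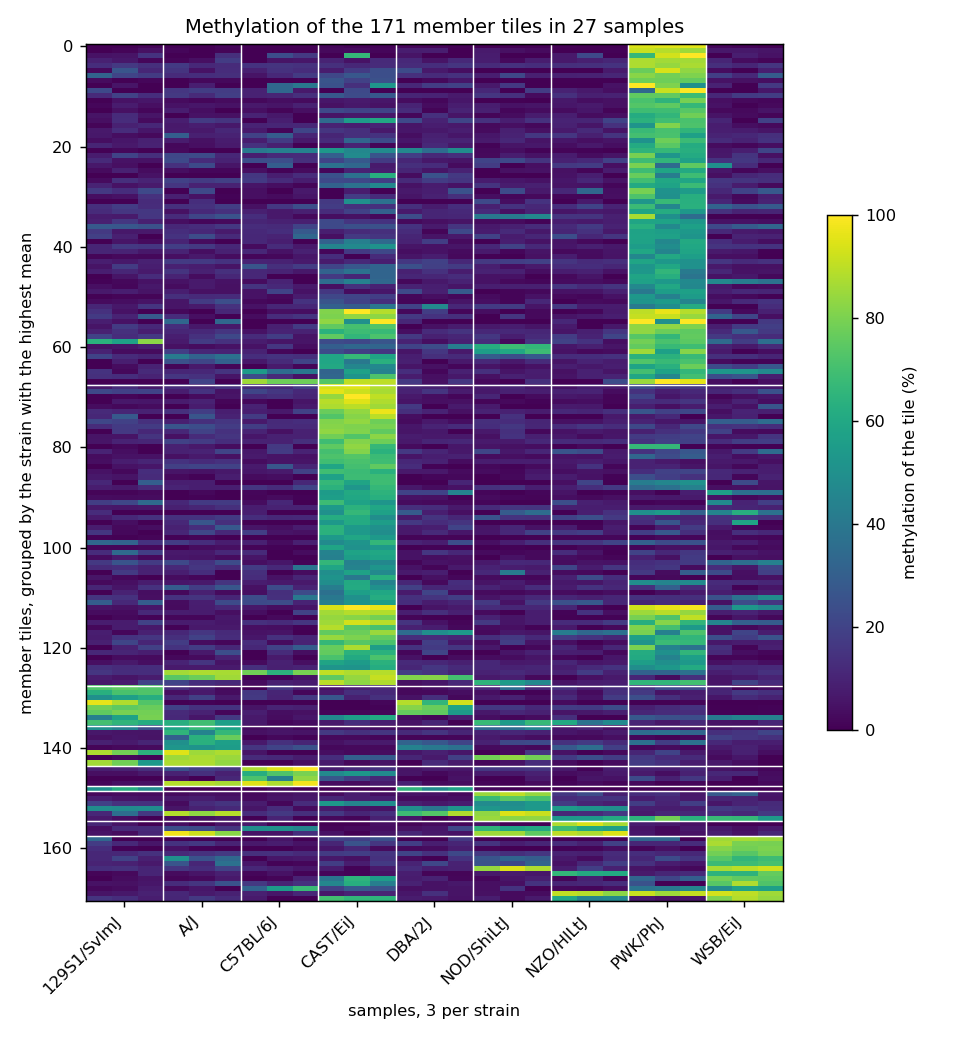
Methylation in percent (colour) of the 171 tiles (rows, grouped by the strain with the highest mean) in each of the 27 samples (columns, 3 per strain). The 3 samples of a gaining strain are mostly bright together, and the blocks of PWK/PhJ and CAST/EiJ take up most of the rows.

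The gains reached a median of 68.0%, and 64 of 235 were at 80% or more and 13 at 90% or more. The unmethylated strains had a median of 6.69%. Many tiles were not divided sharply into high and low strains, since 216 tile and strain pairs lay between 15 and 50% and only 54 tiles had no strain in that range. In 149 of 171 tiles the lowest sample of the gaining strains lay above the highest sample of every other strain. The gap between those samples was at least 25 points in 94 tiles and at least 50 points in 36. Such separation is favoured by the rule, which places the means of these strains on either side of 50%. No share over all tiles is set beside it. In 175 of the 235 gains all 3 samples were at 50% or more, in 17 the samples spanned at least 30 points, and in 0 was any sample under 15%.

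The spread between replicates is given beside that of other tiles, which were not matched for level or number of positions. The SD over 3 samples had a median of 5.94 points for gains, against 3.11 for all tile and strain pairs from 50 to 100%. For unmethylated strains it was 2.70 points in these tiles against 0.484 for all pairs under 15%. The tiles rest on a median of 6 shared positions, from 3 to 75, which is also the median of all tiles. Tiles under 15% in all 9 strains, of which there were 25705, had a median of 30.

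The limits cut through a continuous range. The lowest top strain inside the limit was CAST/EiJ at 50.1% (chr10:120721001-120722000), and the highest outside it was PWK/PhJ at 49.95% (chr10:20487001-20488000). The highest fifth-lowest strain mean inside was 14.97% (chr5:31209001-31210000), and the lowest outside stood at 15% (chr8:127186001-127187000). A further 105 tiles had at least 5 strains under 15% and a top strain from 40 to under 50%, and 55 of the 171 had a top strain from 50 to under 60%.

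Because the limits were applied to all 3 samples, each strain's choice was repeated on 2 of them and read in the one left out. With the third sample in accession order left out, 186 of 222 gains (83.8%) stood at 50% or more in that sample and 3 fell under 15%. Leaving out the first or the second sample gave 79.6% of 245 gains and 80.6% of 248. The unmethylated strains stayed under 15% in 88.2, 88.5 and 87.3% of pairs. The left-out samples had median levels of 67.9, 67.2 and 66.8% for the gains and 6.25, 6.29 and 6.47% for the unmethylated strains. These gains belong to the repeated choices of 167, 181 and 179 tiles, with the third, first and second sample left out. Most of these gains stood in a sample whose level had not chosen them, which still shares its strain and its processing with the others. No such share over all tile and strain pairs at 50% or more is set beside them. The strain-gained tiles themselves were chosen with all 3 samples, so the shares are no separate test of those tiles.

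The tiles in which 1 strain stood alone, with the other 8 under 15%, show the contrast at its sharpest. For each strain the tile with the widest gap between its lowest sample and the highest of the others was taken, and A/J, C57BL/6J and DBA/2J had no such tile. In PWK/PhJ this tile was chr17:32100001-32101000, 8578 bp from the nearest annotated gene, the pseudogene Pdxk-ps. Of its 91 positions listed in any sample, only the 21 shared ones were used. They averaged 94.3, 95.7 and 95.5% in the 3 PWK/PhJ samples. The other 24 samples lay between 0.159 and 1.89%. No sample was intermediate, and each of the 21 positions was at 83.3% or more in PWK/PhJ and at most 2.498% in the mean of the other strains.

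In NZO/HlLtJ the widest gap was at chr9:100446001-100447000, 2959 bp from the noncoding RNA gene Gm28166, with 14 positions. The NZO/HlLtJ samples were at 87.8, 94.1 and 87.0% and all others at 0 to 10.7%. CAST/EiJ had it at chr6:136465001-136466000 within the noncoding RNA gene Gm36897, with 89.2, 95.2 and 87.9% over 4 positions against 0 to 15.6%. Both tiles were picked for a wide gap, so the lack of overlap follows from that choice. PWK/PhJ, at 12.2 to 15.6%, was the next strain in the CAST/EiJ tile. The 129S1/SvImJ tile was chr2:163103001-163104000, which overlaps no gene, at 63.0, 71.4 and 72.3% over 6 positions against 0 to 16.7% elsewhere.

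WSB/EiJ had 2 adjacent tiles between neighbouring genes on chromosome 2. The tile chr2:84811001-84812000 holds an end of Smtnl1, which encodes a smoothelin-like protein of muscle. Over 5 positions the WSB/EiJ samples were at 81.9, 78.8 and 80.3% and the other samples at 0 to 13.1%. The tile before it holds an end of Ube2l6, whose product is the enzyme that passes on the ubiquitin-like protein ISG15. There WSB/EiJ stood at 87.4, 79.8 and 79.4% and the other samples at 5.00 to 25.6%. Both tiles were named for a wide gap, so WSB/EiJ lay apart from all other strains by that choice. The tiles overlap these genes, but exon, intron and UTR are not given here, since the gene table holds spans only.

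NOD/ShiLtJ also had an adjacent pair, at the start of Gm8773, a protein-coding gene. In chr5:5573001-5574000, just upstream, its samples were at 67.2, 74.97 and 70.9% over 13 positions and the others at 2.82 to 14.6%. In chr5:5574001-5575000, which holds the start, they were at 84.9, 89.97 and 84.0% over 17 positions. The other samples reached 31.0% in the latter tile, where WSB/EiJ measured 27.9, 31.0 and 6.18%. Over the 20 positions of the promoter window printed above, NOD/ShiLtJ averaged 77.2% ± 4.38 (SD, n = 3) and the other strains 2.26 to 13.1%. All 30 shared positions of the pair were higher in NOD/ShiLtJ than in every other strain.

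Several tiles were shared by strains in combinations other than CAST/EiJ with PWK/PhJ. The widest gap among tiles with more than 1 gaining strain was at chr7:63802001-63803000, which overlaps no gene. A/J was at 88.7, 88.4 and 87.1% and C57BL/6J at 95.0, 87.6 and 98.2% over 5 positions, and the other 21 samples were at 0 to 9.03%. At chr11:53903001-53904000 NZO/HlLtJ measured 90.5, 88.9 and 82.5%, PWK/PhJ 91.6, 85.5 and 90.7% and WSB/EiJ 93.3, 89.9 and 85.8%. The other 18 samples there lay at 2.78 to 13.95%. In both tiles the gaining strains were alike, and their distance from the rest follows from the choice by gap.

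A tile within Coro2b, the gene of an actin-binding coronin (chr9:62421001-62422000, 7 positions), was gained in 3 laboratory strains. A/J was at 98.0, 92.2 and 82.1%, NOD/ShiLtJ at 85.2, 85.7 and 75.2% and NZO/HlLtJ at 90, 87.8 and 94.6%, against 0 to 13.3% elsewhere. At chr7:30314001-30315000 (10 positions), which holds the start of Syne4, the gene of a nesprin of the nuclear envelope, and an end of Alkbh6, a member of the AlkB dioxygenase family, the gaining strains were A/J, CAST/EiJ and DBA/2J. A/J measured 73.9, 77.6 and 85.7%, CAST/EiJ 75.01, 84.1 and 91.0% and DBA/2J 81.0, 81.8 and 70.1%, and the other 18 samples 0 to 14.02%. The wild-derived strains were thus on different sides at this tile, where PWK/PhJ and WSB/EiJ stood at 9.27 and 7.12%. No position in the promoter window of Syne4 was read in all samples, and those of the tile lie upstream of it.

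NOD/ShiLtJ and WSB/EiJ shared chr17:15536001-15537000, which overlaps the pseudogene Gm7177. They measured 84.3, 94.7 and 87.5% and 86.7, 89.5 and 93.0%, and the other 21 samples 0.855 to 19.6%. The pair 129S1/SvImJ and DBA/2J shared chr1:171044001-171045000, which overlaps the tRNA gene n-TGgcc4. 129S1/SvImJ was at 96.3, 87.9 and 72.7% and DBA/2J at 89.0, 65.8 and 93.3%, and no other sample was above 2.88%. The next tile showed the same 2 strains at 47.9 to 65.0% and all others at 0 to 2.88%. Pseudogenes and tRNA genes have near-identical copies elsewhere in the genome. How reads of such copies were placed was not tested, and these 2 loci are uncertain for that reason.

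The same pair of strains carried the tile with the most positions among the shared ones, chr9:123924001-123925000, singled out after its values were seen. Over 46 positions 129S1/SvImJ measured 75.7, 79.6 and 78.7% and DBA/2J 76.4, 75.5 and 54.6%, against 0.446 to 12.8% in the other samples. The following tile, which holds the start of the noncoding RNA gene Gm51701 but was read only past it, stood at 75.03 to 78.5% and 58.4 to 81.7% in these strains and at 0 to 23.0% in the others. The promoter window of Gm51701, whose 7 positions read lie in the former tile, was lower, at 56.0% ± 2.06 (SD, n = 3) in 129S1/SvImJ and 29.4% ± 25.5 (SD, n = 3) in DBA/2J, and the other strain means there were 0 to 1.19%. In both tiles the same DBA/2J sample was well below its fellows.

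CAST/EiJ and PWK/PhJ were the only gaining strains in 4 of the 10 shared tiles with the widest gaps, of which 3 are described. Within Hrob, the gene of a homologous recombination factor (chr11:102263001-102264000, 6 positions), CAST/EiJ was at 81.0, 100 and 88.9% and PWK/PhJ at 90, 96.7 and 88.9%. The other 21 samples were at 0 to 18.3%. Pitpnc1, which encodes a phosphatidylinositol transfer protein, had such a tile as well (chr11:107317001-107318000, 4 positions). Its samples were at 79.2 to 84.3% in CAST/EiJ, 71.9 to 90.3% in PWK/PhJ and 0 to 9.72% elsewhere. The tile chr3:21650001-21651000 overlaps no gene and was at 70.5 to 75.6% in CAST/EiJ, 80.8 to 83.5% in PWK/PhJ and 0 to 18.7% elsewhere. These 3 tiles were named for their wide gaps, so the lack of overlap with other strains follows from that choice.

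An end of a protein-coding gene lay in 17 of the 171 tiles (9.94%), against 13.2% of all tiles. The one read at most positions was at Gal, which encodes the precursor of the neuropeptide galanin (chr19:3414001-3415000, 44 positions). The WSB/EiJ samples were at 78.5, 74.0 and 79.0%. The other 24 samples lay between 8.90 and 21.6%, with the lowest strain mean in NZO/HlLtJ at 10.4% and the highest in DBA/2J at 18.8%. The tile is among those named for a wide gap, so WSB/EiJ was apart from all of them by that choice. The others were low but not at 0. Over the promoter window printed above WSB/EiJ averaged 78.1% ± 2.80 (SD, n = 3), against 10.5 to 20.9% for the other strain means. Position by position the WSB/EiJ mean ranged from 39.0 to 97.2%, was above every other strain at 44 of 44 and reached 50% at 42.

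**Figure D3:**
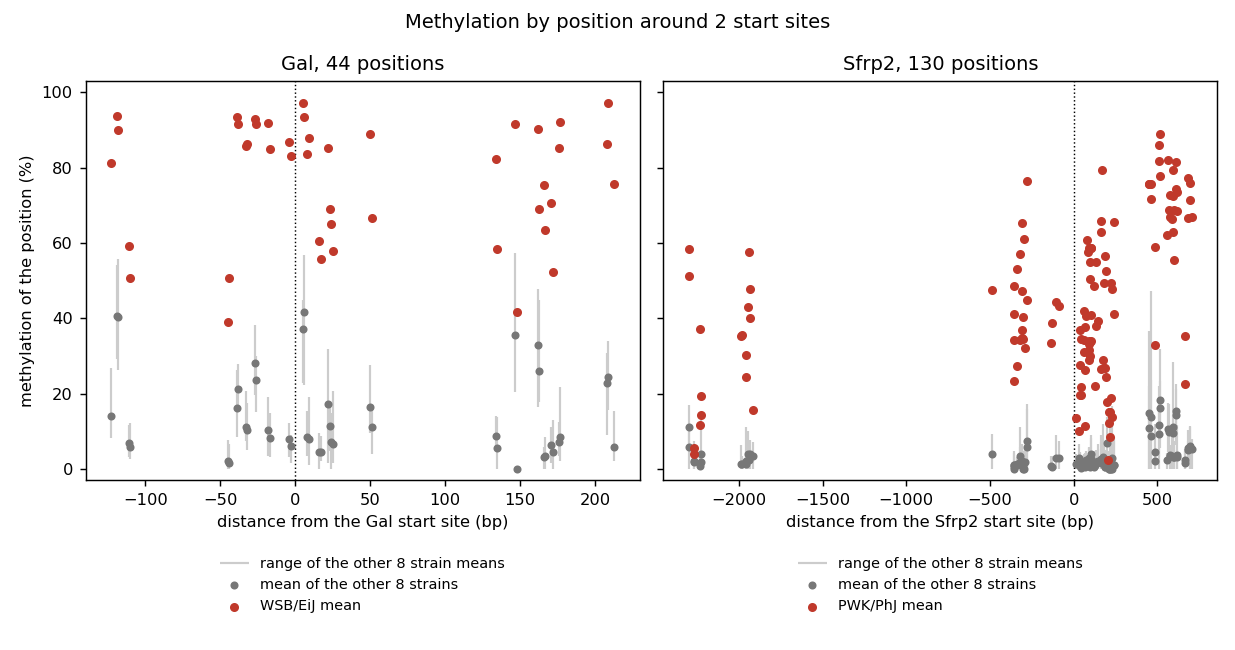
Methylation in percent (vertical axis) of each shared position by its distance in bp from the start site (horizontal axis, dotted line at the start) around Gal and Sfrp2; red points are means of the gaining strain, grey points means of the other 8 strains and grey bars the range of their strain means. The red points lie above the grey bars at 44 of 44 positions around Gal and at 127 of 130 around Sfrp2.

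PWK/PhJ gained tiles that hold the starts of 2 zinc finger genes, but the positions read lie past the start, and none was in either promoter window. At Zfp971 (chr2:178023001-178024000, 16 positions) its samples were at 78.1, 77.8 and 76.1%. CAST/EiJ was intermediate there at 26.4, 19.2 and 24.8%, and the other 21 samples lay at 0 to 5.89%. At Zfp811 (chr17:32809001-32810000, 6 positions) PWK/PhJ was at 51.6, 81.1 and 72.2% and the other samples at 1.28 to 14.1%, so that PWK/PhJ stood apart with a wide spread of its own. Zinc finger genes are numerous and alike in sequence, and how reads of related copies were placed was not tested. An end of Whamm, which encodes a promoter of actin assembly, was gained in PWK/PhJ too, at 61.0, 74.3 and 61.4% against 0 to 14.4% (chr7:81596001-81597000, 5 positions).

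The tile that holds the start of Akr1e1, an aldo-keto reductase gene (chr13:4609001-4610000), was the only one of the 171 gained in 4 strains. Over 3 positions, which lie past the start and outside its promoter window, NOD/ShiLtJ measured 84.8, 82.7 and 83.4%, NZO/HlLtJ 53.3, 53.8 and 61.2%, PWK/PhJ 64.7, 78.8 and 64.0% and WSB/EiJ 67.8, 66.5 and 54.4%. The 15 samples of the other 5 strains were at 0 to 9.79%. The 4 strains were all high, with NOD/ShiLtJ above the other 3. Another aldo-keto reductase gene, Akr1b8, singled out after its values were seen, was gained at its start in WSB/EiJ at 73.9, 87.5 and 72.5% and in CAST/EiJ at 45.8, 62.5 and 42.9% (chr6:34354001-34355000, 4 positions, all in the promoter window). The other samples there lay at 0 to 25%, so CAST/EiJ was closer to them than WSB/EiJ was.

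The tile that holds the start of Gm28455, a protein-coding gene, was gained in A/J at 85.2, 87.4 and 85.1% and in NOD/ShiLtJ at 78.7, 83.3 and 78.9% (chr7:39487001-39488000, 7 positions). These positions lie past the start, and none in the promoter window was read in all samples. CAST/EiJ, at 13, 30.6 and 27.7%, was the highest of the rest. The tile with the start of Ranbp3l, which encodes a RAN-binding protein, was gained in CAST/EiJ at 69.5, 68.3 and 63.7% (chr15:8967001-8968000, 10 positions), and its promoter window averaged 72.7% ± 5.85 (SD, n = 3) there over 3 of them. The other samples reached 20.4%, in PWK/PhJ. Both tiles were named for a wide gap, so the gaining samples stood clear of all others by that choice.

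**Figure D4:**
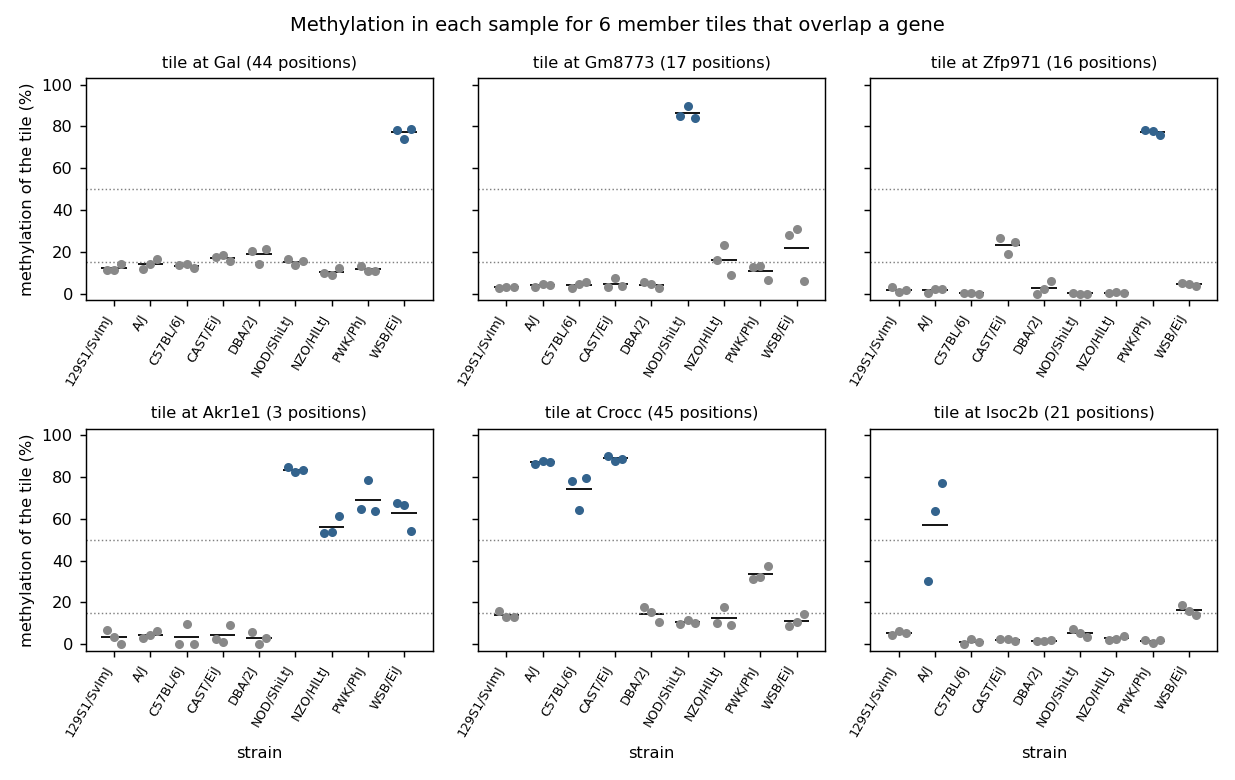
Methylation in percent (vertical axis) of 6 tiles at named genes in each sample by strain (horizontal axis); points are samples, blue in gaining strains, horizontal bars are strain means and dotted lines mark 15 and 50%. The 3 samples of a gaining strain lie close together at Gal, Gm8773 and Zfp971 and spread from 30.2 to 77.0% in A/J at Isoc2b.

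The 5 tiles in which A/J stood alone were read at 16 to 75 positions, against a median of 6 for all 171, and A/J was at 53.1 to 61.0% in them. Such levels were not particular to A/J, since the tiles of CAST/EiJ alone had a median of 59.8%. In each of the 5 another strain was above 15%, the highest of them at 16.2 to 40.6%, as was the case in all 3 tiles of C57BL/6J alone. In the tile with the start of Isoc2b, which encodes an isochorismatase-domain protein (chr7:4866001-4867000, 21 positions), the A/J samples differed among themselves at 30.2, 63.8 and 77.0%. All other samples were at 0.251 to 19%, so the lowest A/J sample was nearer to WSB/EiJ, at 16.2% ± 2.62 (SD, n = 3), than to the highest A/J sample. Over the 4 positions read in the promoter window printed above, A/J averaged 48.5% ± 19.8 (SD, n = 3) and the other strains 0 to 7.05%. Within Lactbl1 (chr4:136637001-136638000, 75 positions) the A/J samples were at 65.4, 44.6 and 66.5%, and PWK/PhJ averaged 35.1%. Isoc2b and Lactbl1 were picked with their values in view, as was Crocc, the gene of the ciliary rootlet protein rootletin (chr4:141025001-141026000, 45 positions). At Crocc A/J measured 86.2, 87.8 and 87.1%, C57BL/6J 78.3, 64.4 and 79.7%, CAST/EiJ 90.3, 87.8 and 88.7%, PWK/PhJ 31.3 to 37.3% and the other samples 8.54 to 17.8%. PWK/PhJ was intermediate there in all 3 samples.

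The levels of single positions were among the values that chose the tiles and are described only. The 171 tiles held 1464 shared positions, and 1456 of them were higher in the gaining than in the unmethylated strains. At 1044 the gaining strains were at 50% or more and the unmethylated strains under 15%, and in 52 tiles every position was. The shared positions of a tile spanned a median of 141 bp, from 5 to 911, and 69 tiles spanned at most 100 bp, so that many of them stand for a short stretch rather than for 1 kb. Positions of 1 tile can come from the same fragments.

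Positions that were not listed in all samples had not been used to choose the tiles. In 38 tiles at least 3 such positions could be compared, 295 in all. In 38 of the 38 they were higher in the gaining strains, by a median of 49.9 points and by 1.34 at the least. Another 34 tiles had 1 or 2 such positions, which were higher in the gaining strains in 32 and lower in 2, by 9.09 and 3.75 points. In the 38 tiles the median levels of these positions were 61.8% in gaining and 9.04% in unmethylated strains, and 21 of the 38 tiles met both limits on these positions alone. These positions lie among those that chose the tiles and come from the same libraries.

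The tiles differed in position from those that were unmethylated in all strains. These sets were not matched for shared positions, of which they had medians of 6 and 30. A transcription start lay in 13.5% of the 171 tiles, against 13.1% of all tiles and 40.1% of tiles under 15% in all 9 strains. Their centres lay a median of 11369 bp from the nearest start, against 12163 bp for all tiles and 681 bp for the latter. Protein-coding genes overlapped 48.0% of the strain-gained tiles, 68.1% of all tiles and 83.3% of those unmethylated throughout. For noncoding RNA genes the shares were 19.9, 12.0 and 14.4%, and 32.2, 24.0 and 10.8% overlapped no gene. For pseudogenes they were 3.51% (6 tiles), 1.39% and 0.626%. The strain-gained tiles were closer to all tiles than to the tiles unmethylated throughout in each of these measures except the overlap with noncoding RNA genes. Of the mirror class, 0.625% held a start and the median distance was 21696 bp. Chromosome 18 is left out of measures that use starts and holds none of the 171 tiles.

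Of the 171 tiles, 18 (10.5%) lay directly beside another. Of all tiles 1.81 per 1000 were chosen, but the share of all tiles that lie beside a chosen one was not counted. The 18 tiles formed 9 runs of 2 tiles, the longest seen, and in 8 of the 9 both tiles had the same gaining strains. A run can be 1 short stretch cut by a tile border. In the WSB/EiJ pair on chromosome 2 the positions read ended at 84810902 in the first tile and began at 84811022 in the next. The runs therefore do not show that a gain fills both tiles. Another 54 tiles directly beside a strain-gained one had enough positions and were not chosen. The tiles lay on 18 of 19 autosomes, from 0.522 per 1000 tiles on chromosome 13 to 2.85 on chromosome 17, not counting chromosome 18.

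Of 10 gene lists drawn up for liver and for methylation, 9 held none of the 171 tiles. They were imprinted genes (163 tiles), hepatocyte transcription factors (166), cytochrome P450 genes (122), homeobox, Pax and Sox genes (848), clustered protocadherins (75), replication-dependent histone genes (27), genes of glucose, fatty acid and cholesterol metabolism (171), writers and erasers of DNA methylation (69), and cofactors of zinc finger repressors with small RNA pathway genes (34). Zinc finger genes held 2 in 1156 tiles, Zfp971 and Zfp811, or 1.73 per 1000 against 1.81 per 1000 of all tiles. At that rate a count of 0 says little in any of the 9 lists, which hold 27 to 848 tiles.

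Positions went unlisted more often in gaining strains. Of positions listed in all samples of at least 6 other strains, 9.62% were listed in no sample of the gaining strain, against 1.32% where the strain was unmethylated and 1.26% over all tiles. In CAST/EiJ the shares were 10.3% where it gained, 5.00% where it was unmethylated and 3.61% over all tiles, and in PWK/PhJ 11.2, 5.42 and 3.76%. In the other 7 strains they were 7.91, 0.776 and 0.566%. The first of these ranged by strain from 1.91% in A/J to 20.4% in 129S1/SvImJ, where the 33 unlisted positions lay in 3 of 12 tiles. At least 1 position was unlisted in 68 of the 235 gains (28.9%), against 4.14% of pairs in which the strain was unmethylated and 8.55% over all tiles. In CAST/EiJ these shares of tiles were 34.7, 28.8 and 23.9%, in PWK/PhJ 28.6, 14.5 and 24.1% and in the other 7 strains 23.7, 2.24 and 4.15%. A variant at a CpG is among the things that can take a position off a strain's list. The part of sequence differences in the levels was not tested, and strain genomes were not used here.

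Whether the strain difference reached beyond the chosen tile was tested on the tiles around it, whose values did not choose that tile. Neighbours that were chosen themselves are left out of the counts. A tile was called different when limma's moderated F test over the 9 strains gave a Benjamini-Hochberg adjusted p under 0.05 and the highest and lowest strain mean were at least 25 points apart. By this rule 8.18% of 75077 autosomal tiles tested were called. Of 149 tested tiles within 5 tiles of a strain-gained one, 37 (24.8%) were called, which is 3.04 times the background. Several of the 37 lay around the same strain-gained tile, so they are not independent of each other. The share is therefore not the share of strain-gained tiles with a called neighbour. Directly beside a strain-gained tile 22 of 47 were called (46.8%), at 2 tiles 6 of 22, at 3 tiles 5 of 30, at 4 tiles 3 of 27 and at 5 tiles 1 of 23. The share thus fell with distance and at 5 tiles, with 1 tile called, was below the background. Leaving out the tiles directly beside, 15 of 102 (14.7%) were called. Within 5 tiles of a tile under 15% in all strains, 6.90% of 18230 tested tiles were called. With tiles under 15% in all strains left out of both sets, the shares were 26.8% (37 of 138) around the strain-gained tiles and 11.4% around those unmethylated throughout. The 171 tiles were themselves called in 170 cases, from which nothing can be read, since the same means chose them.

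**Figure D5:**
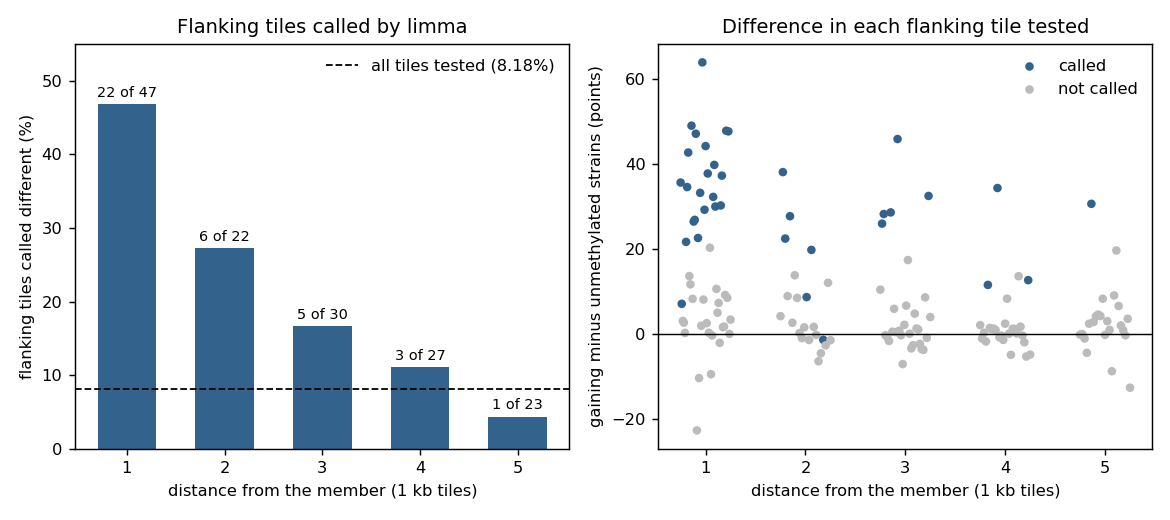
Left, percent of tested tiles called different by limma (vertical axis) by distance from a strain-gained tile in 1 kb tiles (horizontal axis), with the share of all tiles tested, 8.18%, as a dashed line. Right, each tested tile's mean in the gaining minus that in the unmethylated strains of the nearby strain-gained tile, in percentage points, blue where called; the called tiles lie above 0 with 1 exception.

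In 36 of the 37 called neighbours the mean of the strains that gained the chosen tile was above the mean of its unmethylated strains, in 28 by at least 25 points, and in 0 was it lower by that much. Every gaining strain was above every other strain in 26 of the 37, and in the other 11 another strain was at or above a gaining one. In chr2:165900001-165901000, near a PWK/PhJ gain, CAST/EiJ stood higher (70.8%) than PWK/PhJ (51.4%), and in chr5:146599001-146600000, near a CAST/EiJ gain, PWK/PhJ (94.4%) was above CAST/EiJ (80.3%). The exception to the first count was a tile near a CAST/EiJ gain (chr17:27523001-27524000), 1.34 points lower. The median difference of the called neighbours was 30.6 points and that of all 174 neighbours, untested ones included, 1.89. Neighbours come from the same mice, and reads of directly adjacent tiles may share a fragment, whose part was not tested. The neighbours named below were picked with their values in view.

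The largest difference was beside the A/J and C57BL/6J tile on chromosome 7. In chr7:63803001-63804000 (16 positions) A/J was at 87.1, 90.8 and 93.9% and C57BL/6J at 95.0, 96.3 and 90.2%. The other 21 samples were at 17.9 to 39.4%, so that the same strains stood apart while the rest were partly methylated. The gaining strains were 63.8 points above the unmethylated ones. The F test over all 9 strains, which does not test that difference by itself, gave an adjusted p of 5.63e-13 (limma), and the adjusted p-values of the tiles below come from the same 9-strain test.

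The longest stretch was at Sfrp2, which encodes a secreted modulator of Wnt signalling. The chosen tile lies within the gene (chr3:83767001-83768000, 5 positions), with PWK/PhJ at 73.1, 75.1 and 66.6% and the other samples at 0.625 to 10.03%. The tile before it (chr3:83766001-83767000) holds the gene's start and 101 shared positions. There PWK/PhJ was at 44.3, 48.7 and 44.9% and the other 24 samples at 1.74 to 5.73%. PWK/PhJ was 42.6 points above the unmethylated strains, and no sample of another strain came near it (9-strain F test of limma, adjusted p 1.64e-12). The 2 tiles further upstream were called too: PWK/PhJ stood 38.0 points higher in chr3:83765001-83766000, at 35.1, 47.1 and 35.6% (9-strain F test of limma, adjusted p 2.27e-10), and 28.2 points higher in chr3:83764001-83765000, at 41.4, 26.6 and 25.7% (9-strain F test of limma, adjusted p 1.53e-07). Over 130 positions between -2300 and 709 bp relative to the start (negative is upstream), PWK/PhJ was above every other strain at 127 and at 50% or more at 51. In the promoter window printed above it averaged 28.6% ± 2.43 (SD, n = 3), against 1.09 to 1.97% for the other strains, CAST/EiJ among them at 1.76%. The level around the start was thus lower than inside the gene. Neighbouring positions, which can be the 2 strands of a CpG, did not always match. PWK/PhJ was at 79.4 and 28.9% at 172 and 173 bp past the start, but at 71.4 and 75.9% at 694 and 695 bp. How often such positions differed was not counted.

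A similar step was measured at Fbf1, whose product acts at the base of cilia. The tile within the gene (chr11:116167001-116168000) was chosen for PWK/PhJ, at 50.6%. The next, which holds the start and 27 positions, was at 41.5, 29.1 and 21.6% in PWK/PhJ and at 0 to 3.12% in all other samples. The 3 PWK/PhJ samples differed widely among themselves but were all above the others, on average 30.2 points above the unmethylated strains. The 9-strain F test of limma gave an adjusted p of 2.03e-09. Next to a PWK/PhJ tile within Arpp21, a gene of a cAMP-regulated phosphoprotein, PWK/PhJ was at 43.3, 45.9 and 40.4% over 21 positions (chr9:112118001-112119000), or 39.7 points above the unmethylated strains. The 9-strain F test of limma gave an adjusted p of 2.28e-11. CAST/EiJ came next at 18.2, 21.5 and 18.9%, and the remaining samples were at 0.836 to 6.31%.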

How the data were processed

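DNA methylation was measured by RRBS in 27 hepatocyte samples. Per the submitters' processing notes, Trim Galore 0.6.3, Bowtie2, Bismark 0.22 and the build GRCm38 (mm10) were used; their settings and any coverage filter are not given in the sources used here. The authors deposited, per sample, a percent methylation for each listed position, with no counts. Of 5076653 autosomal positions in at least 1 file, 1653370 were in all 27. Of the shared positions in RefSeq promoter windows of GRCm38.p6, 99.6% fell on a CpG, which ties the files to that build.

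Tile values are unweighted means of percent over shared positions, each strand counted on its own. The members and gene lists were chosen with earlier results of these data known. Named tiles are, per strain, the widest gap between its lowest and the others' highest sample where it stood alone with all other strains under 15%; the 10 widest gaps with several gaining strains; the 10 widest at ends of protein-coding genes; listed genes; the longest runs; and tiles at the limits. One tile that the rule names is not reported here. A count model had been planned, but the files hold percentages, so limma 3.58.1 (R 4.3.3) was fitted with strain as a factor to log2((percent + 5)/(100 - percent + 5)) of 75077 tiles with a mean from 2.5 to 97.5%, with Benjamini-Hochberg adjustment. On simulated data, in a run of 4000 tiles of 9 strains, this test called 94% of tiles shifted by 30 points. It called 100% of those shifted by 50 points or more and 0 of 3800 unshifted ones. A call also needs strain means at least 25 points apart. The 0 can follow from that limit alone, so it gives no false-call rate. Whether the simulated tiles matched the tested neighbours in level and spread was not tested. Samples were grouped by the strain in the labels. Other limits, tile borders, strands, offsets and left-out samples were tried. Tables and figures were made in Python 3.11.15 with numpy 2.4.6, pandas 2.3.3 and matplotlib 3.10.9. Genes were assigned by spans of the RefSeq gene table; repeats and CpG density of whole tiles were not analysed here.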

Additional observations from a re-analysis of the deposited data

How the results depend on the processing

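Of 109 alternative values, 8 moved further than set as a limit, which for a number of tiles was 1.5 times. Most of the 109 came from leaving out 1 sample in turn, and none of those moved. All 8 came from the fewer changes of setting. The number of tiles fell from 171 to 98 with unmethylated strains taken as under 10%, to 81 with at least 7 such strains (79.0% then with a single gaining strain) and to 99 with at least 5 positions per tile, and rose to 276 with a gain taken as 40% or more. Within that limit it was 254 with unmethylated strains taken as under 20%, 116 with a gain taken as 60% or more, 132 with the strands of a CpG averaged, 206 with positions in at least 2 samples of every strain and 175 with tile borders moved by 500 bases. The share of neighbours called was 46.8% directly beside, 40.6% up to 2 tiles away and 37.6% with a range of at least 10 points, for which 17.7% of all tiles were called. With the replicate block it was 23.5% (35 of 149). Same-numbered samples of different strains showed no shared deviation (median r 0.003 over 76 pairs, against -0.001 over 248 differently numbered pairs). Whether the numbers stand for a batch or a pairing cannot be settled by these values. Leaving out each sample in turn gave 167 to 177 tiles, 67.8 to 70.6% with a single strain and 22.1 to 26.5% of neighbours called. Of the 171 tiles, 126 were kept whichever sample was left out, and 30 under all 35 settings with the same tile borders. Depth is unknown, many tiles rest on 3 to 5 positions (49.7%), and only positions listed in every strain were used, which leaves out those a strain lacks.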

Other observations

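Some tiles outside the naming rules, picked after their values were seen, are given here as values only. The tile with the start of Klhl33, a kelch-like gene (chr14:50897001-50898000, 12 positions, 1 of them in the promoter window), was the only one with an end of a protein-coding gene gained in C57BL/6J alone. C57BL/6J measured 62.4, 72.6 and 79.8% and CAST/EiJ 46.9, 52.8 and 47.9%, just under the limit, and the other 7 strains averaged 4.06 to 10.8%. Within Tada2a, the gene of a transcription adaptor (chr11:84115001-84116000, 6 positions), PWK/PhJ was at 91.7, 88.9 and 85.4% and all other samples at 0 to 8.33%. Within Akain1 (chr17:69475001-69476000, 26 positions) PWK/PhJ was at 87.6, 84.1 and 87.4%, and the other 8 strain means were 12.5 to 14.7%. Those means were raised by a few positions, since the median position was at 1.21% in the unmethylated strains and the highest at 92.5%. Within Cdk1, the gene of a cyclin-dependent kinase of the cell cycle (chr10:69342001-69343000, 8 positions), CAST/EiJ was at 83.5, 81.2 and 75.5%, against 0 to 19.7% in the other samples.

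The widest spread within a gaining strain was at chr11:31746001-31747000, where the PWK/PhJ samples were at 33.3, 91.7 and 100% over 3 positions. C57BL/6J, the strain of the reference genome, was at 50% or more in 7 of the 171 tiles and at 50% or less in 17 of the 169 of the mirror class.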
